A study of Mus musculus with 24 samples.

Results

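Livers of mice labelled with a hepatic triple knockout of Atg5, TSC1 and Nrf2 (Nrf2 TKO) were compared with wild-type (WT) livers. The comparison takes the 4 libraries of each of these genotypes, 8 of the 24 libraries of the series, chosen by the genotype in their labels and column names. Livers labelled with the Atg5/TSC1 double knockout (DKO, 4 libraries), which carry both other deletions but not that of Nrf2, served only to show where Nrf2 TKO livers differed from their double knockout counterpart. All mice were C57BL/6J and 2 months old, and polyadenylated RNA of frozen liver was sequenced. The question was which genes are still at abnormal levels in livers that lack Atg5 and Tsc1 once Nrf2 is lost as well. The sources used here name no Cre driver or promoter for the hepatic deletions, and no label ties a library to its own animal. The p-values therefore measure the spread between libraries, which may in part be technical. That spread was estimated over all 24 libraries of the series and not over the 8 compared alone.

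NRF2, encoded by Nfe2l2, is a transcription factor that switches on genes of glutathione synthesis, detoxification, NADPH supply and drug export through the antioxidant response element in their promoters. KEAP1 normally targets it for degradation. Autophagy, which needs ATG5, clears the receptor p62, and p62 that builds up without autophagy can bind KEAP1 and free NRF2. TSC1 restrains mTORC1, the kinase complex that promotes growth and protein synthesis and holds back autophagy and the lysosomal transcription factor TFEB. Loss of autophagy in hepatocytes is known to bring liver enlargement, injury, a ductular reaction and tumours.

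Nfe2l2 (chr2:75675513-75704641, minus strand), which checks the labels, had 11.8, 17.7, 8.72 and 8.69 CPM in Nrf2 TKO livers, against 63.4, 66.5, 80.9 and 56.6 CPM in WT livers (log2 fold change -2.50 ± 0.21, adjusted p = 1.6e-08). All Nrf2 TKO libraries were below all WT libraries, and transcript was still counted in each of them. CPM, a gene's count relative to its library's total after TMM scaling, is the level used throughout. In bulk liver RNA a gene transcribed by fewer cells and a gene with less RNA per cell cannot be told apart. Atg5 (chr10:44268358-44364291, plus strand), which is needed to form autophagosomes, had 35.2, 36, 53 and 40.0 CPM in Nrf2 TKO livers, against 31.4, 27.7, 25.5 and 22.5 CPM in WT livers (log2 fold change 0.61 ± 0.12, adjusted p = 0.00054). It was higher in the Nrf2 TKO libraries although its deletion is in their label. Counts over the whole gene do not show which exons were deleted, so this level does not check the deletion. Tsc1 had 37, 30.9, 21.2 and 31.2 CPM in Nrf2 TKO livers, against 35.7, 34.9, 36.7 and 33.1 CPM in WT livers (log2 fold change -0.22 ± 0.19, adjusted p = 0.37). Sqstm1, the gene of p62, had 535, 552, 575 and 975 CPM in Nrf2 TKO livers, against 556, 558, 691 and 508 CPM in WT livers (log2 fold change 0.19 ± 0.25, adjusted p = 0.57). Both pairs of groups overlapped, and neither gene passed the test. Alb, the transcript of serum albumin and the defining hepatocyte gene, was high in all 8 libraries, at 50835, 40116, 51813 and 41155 CPM in Nrf2 TKO livers, against 62147, 61706, 67801 and 43405 CPM in WT livers (log2 fold change -0.35 ± 0.26, adjusted p = 0.29).

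The total count ran from 10494080 to 12221723 in the Nrf2 TKO libraries, from 11403175 to 13007760 in the DKO libraries and from 11283916 to 11675002 in the WT libraries. Nrf2 TKO library 2 stands apart. It held 14173 counts of Xist, the RNA made from the inactive X chromosome of female cells, against 1 to 48 in each of the other 23 libraries. Its counts of the Y-linked genes were 5 for Ddx3y, 2 for Eif2s3y, 1 for Kdm5d and 0 for Uty, against 807 to 1161, 656 to 1372, 159 to 405 and 141 to 427 in the other 23. The labels give no sex. By these counts library 2 has the pattern of a female liver and the other 23 that of male livers. The Nrf2 TKO group then holds both patterns, and the WT group only the male one. Every result below was also computed without this library. Among called genes whose values are given, Gsr and Hnf4a lost their calls without it.

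Of 15851 genes tested, 6262 (39.5%) were called in Nrf2 TKO against WT livers, 3547 (22.4%) higher and 2715 (17.1%) lower. The counts of each list below are to be read against these shares of all genes. A gene was called at an adjusted p under 0.05 in edgeR's quasi-likelihood test over all 24 libraries. In a fit of only the 8 Nrf2 TKO and WT libraries 3691 genes were called, 2130 higher and 1561 lower. In 4707 genes (29.7%) the groups did not overlap. Without Nrf2 TKO library 2, 4845 of 16161 genes (30.0%) were called, 2770 higher (17.1%) and 2075 lower (12.8%). Across both fits 2705 were called higher and 2007 lower each time, 0 changed direction, 1550 were called only with the library and 100 of the genes tested in both only without it. With libraries scaled by total counts alone, 6166 genes were called higher and 1004 lower, and the median log2 fold change over all genes was 0.39, against 0.07 with TMM. Changes below are relative to the TMM scale. Some genes are on several lists, among them Chac1, Cyp2b9, Cyp4a10, Cyp4a14, Gpnmb, Me1, Prom1 and Slc7a11, so the lists are not separate results. Where a list below has 0 members called in a direction by edgeR, 0 were also called by DESeq2 and 0 had an unadjusted p under 0.05, except in 3 cases. These were glutathione genes called higher (2 by DESeq2, 1 unadjusted), neutrophil markers called higher (1 and 3) and secreted proteins of hepatocytes called higher (0 and 1). Coordinates of genes are those of build GRCm38 with the GENCODE annotation. The sources used here do not say whether the counting used strand, and reads of overlapping genes on opposite strands cannot then be told apart. This concerns Sqstm1 (with Mrnip), G6pdx (Ikbkg), Acadvl (Dvl2), Bex1 (Tceal7), Ccnd1 (LTO1), Cyp51 (Akap9), Ctsb (Fdft1), Cxcl16 (Zmynd15), Fn1 (Apol7d), Lamp1 (Grtp1), Pdia6 (Atp6v1c2), Pfkp (Pitrm1), Shmt2 (Ndufa4l2), Srebf1 (Rai1) and Tead2 (Cd37), and others below that overlap an unnamed or noncoding transcript. On the leading principal component, which held 62.67% of the variance over the 24 libraries, the Nrf2 TKO libraries lay between -23.8 and 21.3, the DKO libraries between 95.0 and 107.5 and the WT libraries between -83.4 and -76.7.

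**Figure D1:**
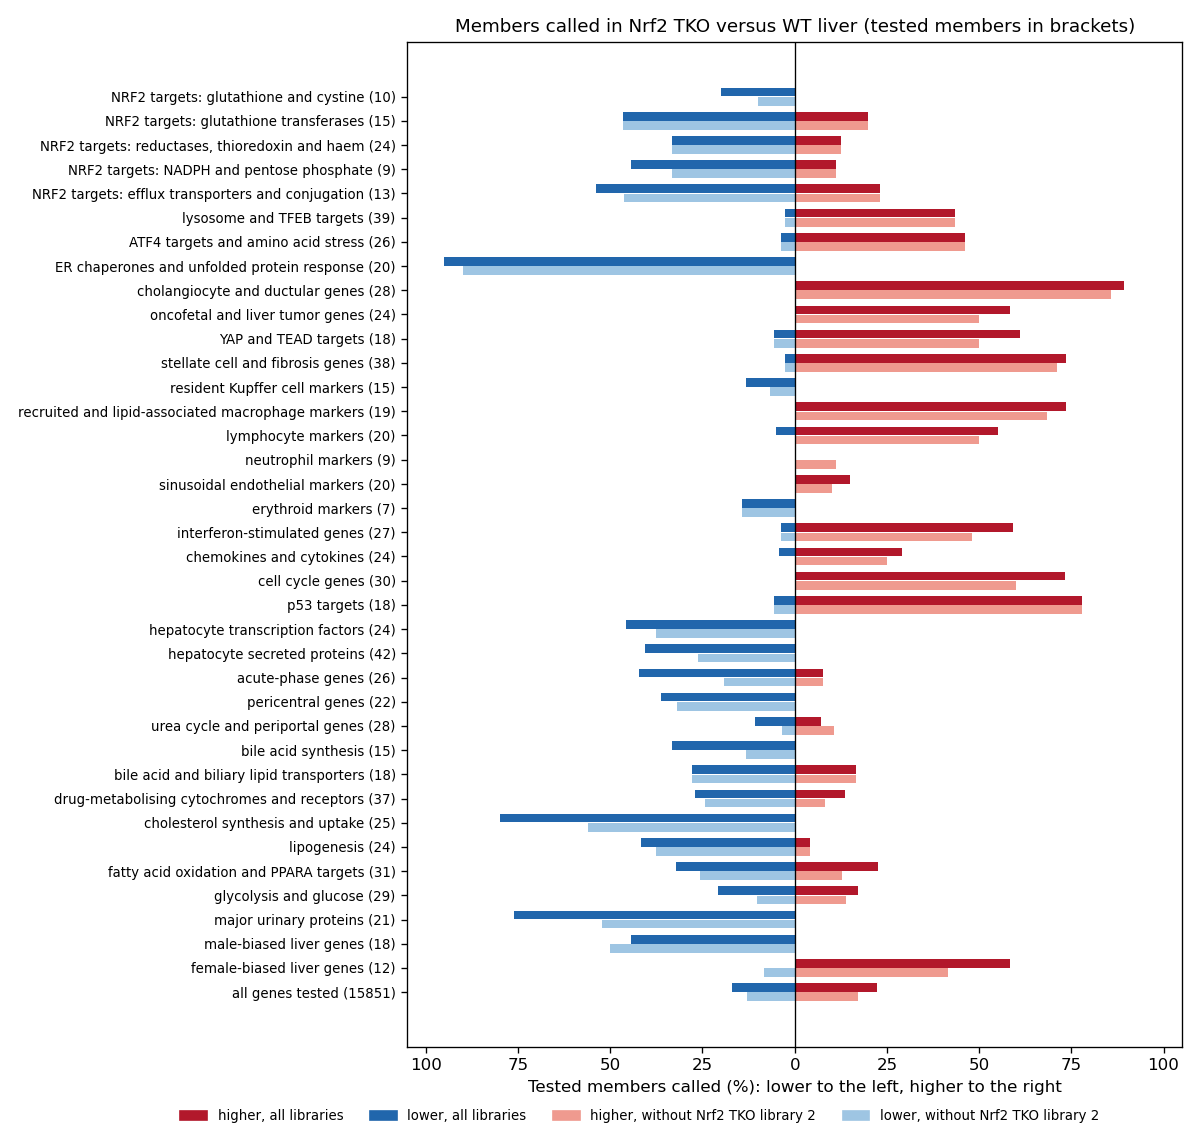
Share of the tested members of each gene list called higher (right) or lower (left) in Nrf2 TKO against WT livers, with all libraries (dark bars) and without Nrf2 TKO library 2 (pale bars). Cholangiocyte genes were called higher in 25 of 28 members and ER chaperones lower in 19 of 20, and the bars of all genes tested, at the bottom, stand at 22.4% higher and 17.1% lower.

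The NRF2 target genes are described by function, starting with glutathione. Of 10 genes of glutathione and cystine handling 0 were called higher and 2 lower, with a median log2 fold change of 0.13. The share called lower was near the 17.1% of all genes. Gclm (chr3:122245557-122270732, plus strand), the modifier subunit of the enzyme that limits glutathione synthesis, had 205, 189, 224 and 158 CPM in Nrf2 TKO livers, against 299, 280.4, 344 and 307 CPM in WT livers (log2 fold change -0.66 ± 0.13, adjusted p = 0.00048). The groups did not overlap, and the call was lost when libraries were scaled by total counts alone (log2 fold change -0.34). Gsr, which regenerates reduced glutathione, had 79.3, 63.8, 89.7 and 83.3 CPM in Nrf2 TKO livers, against 116, 122, 139.8 and 91.2 CPM in WT livers (log2 fold change -0.57 ± 0.20, adjusted p = 0.03), a call lost when any 1 of Nrf2 TKO libraries 1 and 2 and WT libraries 1, 2 and 3 was left out and by total counts alone (log2 fold change -0.27). With any 1 of these 5 libraries left out the count of lower members was 1. By total counts alone 2 members were called higher and 0 lower. Gclc, the catalytic subunit, had 209.8, 169.8, 296 and 173 CPM in Nrf2 TKO livers, against 287, 307, 559 and 146 CPM in WT livers (log2 fold change -0.62 ± 0.32, adjusted p = 0.13), and its groups overlapped. It was called without WT library 4 (log2 fold change -0.82). Slc7a11, the cystine importer, was low in both genotypes, with 3.07, 0.892, 0.484 and 0.869 CPM in Nrf2 TKO livers, against 0.454, 0, 0.212 and 0.365 CPM in WT livers (log2 fold change 2.30 ± 1.19, adjusted p = 0.13). Its groups did not overlap, and it passed the test with DESeq2 (log2 fold change 2.35) but not with edgeR.

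Of 15 glutathione transferases, which couple glutathione to electrophiles, 3, Gstm5, Mgst2 and Mgst3, were called higher and 7 lower, and the median log2 fold change was -0.91. The share called higher was near the 22.4% of all genes. The counts were the same without Nrf2 TKO library 2. Gsta3 (chr1:21240589-21265661, plus strand), an abundant alpha-class enzyme, had 815, 715, 1089.8 and 775 CPM in Nrf2 TKO livers, against 1773, 1803, 2118 and 1217 CPM in WT livers (log2 fold change -1.03 ± 0.20, adjusted p = 0.00036). Gstm1 (chr3:108012255-108017973, minus strand) had 608, 548, 250.2 and 359 CPM in Nrf2 TKO livers, against 1265, 1159, 1751 and 1046 CPM in WT livers (log2 fold change -1.56 ± 0.33, adjusted p = 0.00076). Gstp1 had 100.99, 30.0, 388 and 128 CPM in Nrf2 TKO livers, against 753, 849, 1022 and 627 CPM in WT livers (log2 fold change -2.33 ± 0.48, adjusted p = 0.00074). The groups did not overlap for any of these transferases, and Gstp1 varied widely among the Nrf2 TKO libraries, with library 2 lowest and library 3 highest. Gstp1 is also on the list of male-biased genes described below. Without library 3 its log2 fold change was -3.24. Mgst1, the microsomal transferase, also fell, with 2708, 1745, 2898 and 2396 CPM in Nrf2 TKO livers, against 4332, 4528, 4580.0 and 4918 CPM in WT livers (log2 fold change -0.91 ± 0.16, adjusted p = 0.00014). Gstm5 went the other way, with 24, 27.1, 21.1 and 19.3 CPM in Nrf2 TKO livers, against 10.9, 11.4, 7.83 and 10.5 CPM in WT livers (log2 fold change 1.17 ± 0.13, adjusted p = 5.8e-07). Members of this family have close copies, and reads shared among them may have been counted for a wrong member.

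Of 24 reductases, thioredoxin and haem genes 3, Akr1b8, Akr1b10 and Ptgr1, were called higher (5 with DESeq2, 6 by total counts alone) and 8 lower, with a median log2 fold change of -0.41. Aox1 (chr1:58029931-58106413, plus strand), an aldehyde oxidase, had 24, 24.1, 20.9 and 17.7 CPM in Nrf2 TKO livers, against 112, 121, 237 and 78.7 CPM in WT livers (log2 fold change -2.66 ± 0.24, adjusted p = 8.2e-08). Akr1c13, an aldo-keto reductase, had 43.2, 50.2, 75.4 and 57.6 CPM in Nrf2 TKO livers, against 111, 105.3, 133 and 106 CPM in WT livers (log2 fold change -1.01 ± 0.17, adjusted p = 0.0001). Both sets of libraries were apart for both genes. Ptgr1 (chr4:58965439-58987119, minus strand), a prostaglandin and alkenal reductase, rose, with 19.9, 31.7, 23.2 and 22.3 CPM in Nrf2 TKO livers, against 4.65, 5.66, 3.92 and 4.75 CPM in WT livers (log2 fold change 2.36 ± 0.29, adjusted p = 3.1e-06). Akr1b10 rose as well, with 5.25, 5.95, 2.62 and 4.15 CPM in Nrf2 TKO livers, against 1.25, 1.73, 1.38 and 1.34 CPM in WT livers (log2 fold change 1.66 ± 0.29, adjusted p = 0.00014). Nqo1, the quinone reductase most used as a readout of NRF2, was low in both genotypes, with 4.95, 6.1, 2.23 and 2.03 CPM in Nrf2 TKO livers, against 5.45, 5.08, 4.87 and 5.72 CPM in WT livers (log2 fold change -0.44 ± 0.44, adjusted p = 0.45). Its groups overlapped.

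Of 9 genes of NADPH supply 1 was called higher and 4 lower, and 2 lower by total counts alone. The median log2 fold change was -0.34. Me1 (chr9:86581371-86695953, minus strand), malic enzyme, had 27.1, 43.9, 25.6 and 31.3 CPM in Nrf2 TKO livers, against 169, 156, 289.8 and 196 CPM in WT livers (log2 fold change -2.66 ± 0.32, adjusted p = 2.2e-06). Tkt, transketolase of the pentose phosphate pathway, had 90.9, 91.4, 87.8 and 74.2 CPM in Nrf2 TKO livers, against 146, 147, 147 and 122 CPM in WT livers (log2 fold change -0.71 ± 0.20, adjusted p = 0.0069), a call lost by total counts alone (log2 fold change -0.38). Idh1, the cytosolic isocitrate dehydrogenase, had 422, 327, 389 and 281 CPM in Nrf2 TKO livers, against 612, 591, 595 and 553 CPM in WT livers (log2 fold change -0.73 ± 0.16, adjusted p = 0.0011). G6pdx, which catalyses the entry step of that pathway, was the member that rose, with 12.8, 13.6, 8.81 and 11.8 CPM in Nrf2 TKO livers, against 6.92, 5.2, 4.55 and 4.14 CPM in WT livers (log2 fold change 1.17 ± 0.32, adjusted p = 0.0063).

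Of 13 genes of efflux and conjugation 3, the pumps Abcc1, Abcc4 and Abcc5, were called higher and 7 lower (6 without Nrf2 TKO library 2), with a median log2 fold change of -0.61. The share called higher was near the 22.4% of all genes. Ces1g (chr8:93302369-93337308, minus strand), a carboxylesterase, had 15, 13.8, 6.78 and 5.41 CPM in Nrf2 TKO livers, against 138, 119, 201 and 59.7 CPM in WT livers (log2 fold change -3.65 ± 0.41, adjusted p = 1.1e-06). Ugt2b35 (chr5:87000860-87013275, plus strand), a glucuronosyltransferase, had 33.4, 27, 57.2 and 19.1 CPM in Nrf2 TKO livers, against 316, 313, 424 and 237 CPM in WT livers (log2 fold change -3.24 ± 0.27, adjusted p = 2.3e-08). Every Nrf2 TKO library was below every WT library for both. Entpd5, a nucleotide hydrolase of the endoplasmic reticulum, fell too, with 106, 120.4, 143 and 97.3 CPM in Nrf2 TKO livers, against 274, 289.6, 339 and 202 CPM in WT livers (log2 fold change -1.24 ± 0.21, adjusted p = 9.7e-05). Abcc5 had 33.2, 36, 21.8 and 33.3 CPM in Nrf2 TKO livers, against 5.33, 6.58, 9.95 and 5.24 CPM in WT livers (log2 fold change 2.19 ± 0.30, adjusted p = 1.2e-05). Abcc1 had 5.35, 5.28, 4.07 and 5.7 CPM in Nrf2 TKO livers, against 1.47, 2.31, 1.59 and 1.34 CPM in WT livers (log2 fold change 1.60 ± 0.34, adjusted p = 0.00088), and neither pump overlapped.

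The same lists set Nrf2 TKO livers apart from DKO livers, whose label carries no Nrf2 deletion. Of the 15851 genes, 8861 (55.9%) were called in Nrf2 TKO against DKO livers, 4228 (26.7%) higher and 4633 (29.2%) lower. This comparison shares the Nrf2 TKO libraries with that against WT. In the order of the lists above, members called lower in Nrf2 TKO than in DKO livers numbered 7 of 10, 9 of 15, 13 of 24, 6 of 9 and 9 of 13, and members called higher 0, 1, 0, 1 and 3. Nqo1 averaged 3.83 ± 2.02 CPM in Nrf2 TKO livers and 80.5 ± 19.4 CPM in DKO livers (log2 fold change -4.37 ± 0.42, adjusted p = 3e-08). Slc7a11 averaged 1.33 ± 1.18 CPM in Nrf2 TKO livers and 136 ± 71.1 CPM in DKO livers (log2 fold change -6.69 ± 0.68, adjusted p = 9.5e-08), and the log2 fold change was -7.40 without Nrf2 TKO library 1. Gstm1 averaged 441.5 ± 166 CPM in Nrf2 TKO livers and 4657 ± 1081 CPM in DKO livers (log2 fold change -3.40 ± 0.35, adjusted p = 4.2e-08). Abcc1 averaged 5.1 ± 0.710 CPM in Nrf2 TKO livers and 54.8 ± 6.22 CPM in DKO livers (log2 fold change -3.42 ± 0.29, adjusted p = 2.7e-09). Mgst1 was higher in Nrf2 TKO livers, with 2437 ± 505 CPM in Nrf2 TKO livers and 939 ± 124 CPM in DKO livers (log2 fold change 1.38 ± 0.16, adjusted p = 2.6e-07). Ces1g, with 207 ± 70.2 CPM in DKO livers, was lower in Nrf2 TKO livers than in either other genotype by mean level. Ptgr1, with 98.9 ± 17.5 CPM in DKO livers, had a mean between DKO and WT.

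**Figure D2:**
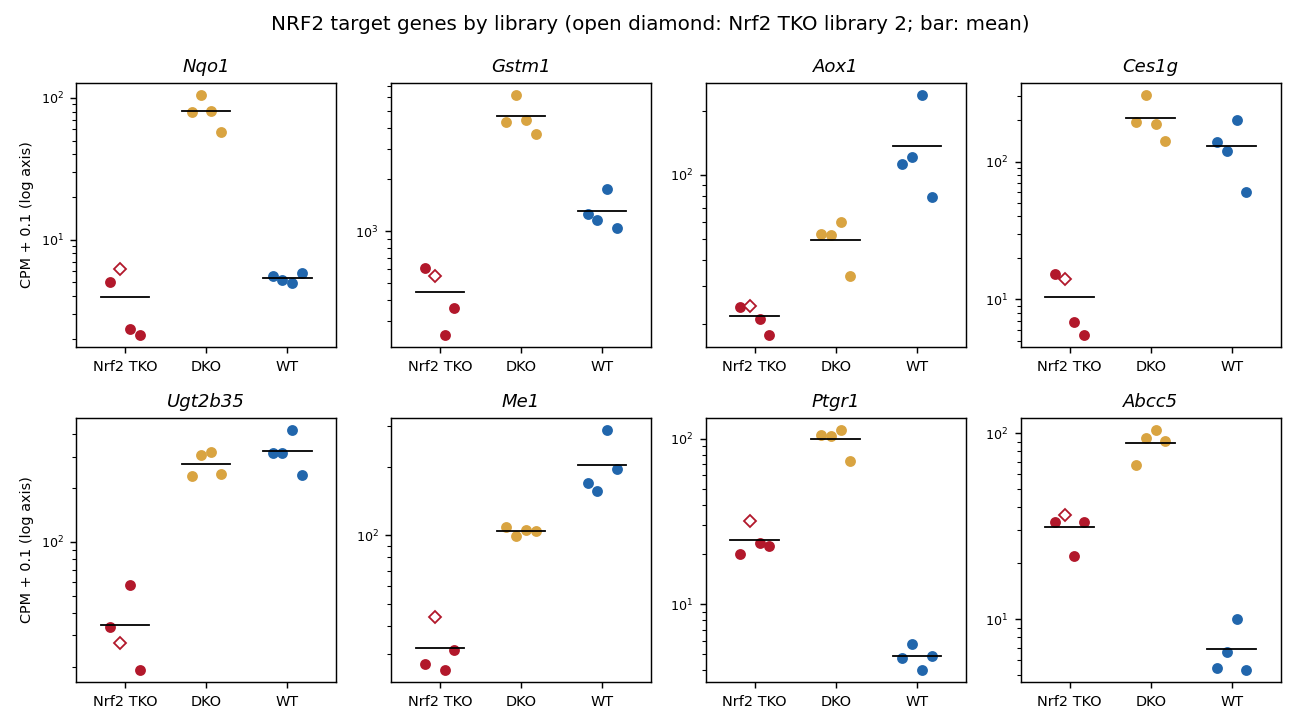
Levels of 8 NRF2 target genes in each Nrf2 TKO, DKO and WT library (CPM plus 0.1, log axis; points are libraries, bars are group means, the open diamond is Nrf2 TKO library 2). Aox1, Ces1g, Ugt2b35, Me1 and Gstm1 lie below WT in all 4 Nrf2 TKO libraries, Ptgr1 and Abcc5 lie above WT, and Nqo1 overlaps WT and lies far below DKO.

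The core of the antioxidant response element, TGACNNNGC on either strand, was searched in RefSeq promoters of build GRCm38.p6, which run from 250 bases before to 50 bases after a gene's start. Of the NRF2 target genes 62 had a promoter there, and 17 of them (27.4%) held the core, against 12.4% of all 32851 promoters and 13.99% of genes with one. Among the other lists the share ran from 0%, as in pericentral genes, to 33.3% in bile acid synthesis. Such a match is a description of the letters and not a bound site. Windows around the core are printed for members on both sides of the comparison, with the core in capitals.
Gclm, lower, chr3:122245399-122245455, plus strand: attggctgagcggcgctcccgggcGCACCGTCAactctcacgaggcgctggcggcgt
Gsta3, lower, chr1:21240440-21240496, plus strand: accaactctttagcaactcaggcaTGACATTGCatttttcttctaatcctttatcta
Gstm5, higher, chr3:107895788-107895844, plus strand: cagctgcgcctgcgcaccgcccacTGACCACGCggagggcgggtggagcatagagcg
G6pdx, higher, chrX:74428905-74428961, minus strand: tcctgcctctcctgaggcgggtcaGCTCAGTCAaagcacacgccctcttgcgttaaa
The core began 134 bases before the start in Gclm, 121 in Gsta3, 42 in Gstm5 and 57 in G6pdx, whose window is on the minus strand. In Gclm and G6pdx it reads as the reverse complement. The core was thus in the window of members that fell and of members that rose.

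Endoplasmic reticulum (ER) chaperones, which fold proteins made for secretion, were low as a set, with 0 of 20 members called higher and 19 lower (18 without Nrf2 TKO library 2). Their median log2 fold change was -1.12, and their summed level ran from 3720 to 7934 CPM in the Nrf2 TKO libraries and from 12230 to 14930 CPM in the WT libraries. Hspa5 (chr2:34771970-34777547, plus strand), the chaperone BiP and the classical readout of ER stress, had 979, 452, 1095 and 1254 CPM in Nrf2 TKO livers, against 2696, 2668, 3299 and 1575 CPM in WT livers (log2 fold change -1.44 ± 0.26, adjusted p = 0.00021). Hyou1 (chr9:44379490-44392369, plus strand), which assists BiP, had 146, 64.4, 200.3 and 226 CPM in Nrf2 TKO livers, against 698, 677, 775 and 469.5 CPM in WT livers (log2 fold change -2.04 ± 0.28, adjusted p = 8.3e-06). Ero1lb (chr13:12565874-12611396, plus strand), an oxidase that forms disulfide bonds, had 25.8, 22.1, 40.4 and 48 CPM in Nrf2 TKO livers, against 135, 131, 187 and 137 CPM in WT livers (log2 fold change -2.11 ± 0.21, adjusted p = 1.8e-07). The groups were apart for these genes, and library 2 was the lowest Nrf2 TKO library of each. The disulfide isomerase Pdia4 had 235, 138, 201 and 232 CPM in Nrf2 TKO livers, against 502, 465, 617 and 446 CPM in WT livers (log2 fold change -1.33 ± 0.18, adjusted p = 5.8e-06). Calreticulin, Calr, had 1159, 631, 1027 and 1286 CPM in Nrf2 TKO livers, against 1993, 1836, 2131 and 2572 CPM in WT livers (log2 fold change -1.06 ± 0.19, adjusted p = 0.00016). The member that did not pass was Herpud1, of ER-associated degradation, at a log2 fold change of -0.55 ± 0.30 (adjusted p = 0.15), and it was called without Nrf2 TKO library 4 (log2 fold change -0.90). Against DKO, 18 of the 20 were called higher in Nrf2 TKO livers and 0 lower. Hspa5 averaged 945 ± 348 CPM in Nrf2 TKO livers and 282 ± 38.8 CPM in DKO livers (log2 fold change 1.74 ± 0.27, adjusted p = 7.9e-06). Hyou1 averaged 159 ± 71.4 CPM in Nrf2 TKO livers and 55.8 ± 9.36 CPM in DKO livers (log2 fold change 1.51 ± 0.27, adjusted p = 7.1e-05).

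The ER stress element, CCAAT and CCACG at a fixed spacing, was searched in the same promoters. It was found on either strand in 7 of the 16 members with a promoter (43.8%), against 0.119% of all promoters and 0.137% of genes with one. This motif was added to the search after the values were seen. Windows are printed for 5 of the 7, with CCAAT and CCACG, or their reverse complements, in capitals.
Hspa5, chr2:34772001-34772067, plus strand: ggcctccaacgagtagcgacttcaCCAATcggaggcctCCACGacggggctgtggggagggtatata
Calr, chr8:84847051-84847117, minus strand: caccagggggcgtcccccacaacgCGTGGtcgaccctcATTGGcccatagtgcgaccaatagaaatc
Pdia6, chr12:17266467-17266533, plus strand: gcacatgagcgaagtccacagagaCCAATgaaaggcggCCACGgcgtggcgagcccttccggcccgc
Creld2, chr15:88819496-88819562, plus strand: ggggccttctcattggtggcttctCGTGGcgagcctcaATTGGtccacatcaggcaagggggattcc
Dnajc3, chr14:118937803-118937869, plus strand: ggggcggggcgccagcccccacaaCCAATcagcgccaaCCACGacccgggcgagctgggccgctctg
Pdia6, Creld2 and Dnajc3 were chosen for this element with their values known, and Hsp90b1 and Canx, which hold it too, are not printed. Pdia6, a disulfide isomerase, stood at a log2 fold change of -1.01 ± 0.18 (adjusted p = 0.00016), Creld2, an ER-resident secreted factor, at a log2 fold change of -2.12 ± 0.30 (adjusted p = 1.7e-05), and Dnajc3, a co-chaperone of BiP, at a log2 fold change of -1.16 ± 0.16 (adjusted p = 1.2e-05).

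Genes of cholesterol synthesis and uptake were low as a set as well, with 0 of 25 called higher and 20 lower (14 without Nrf2 TKO library 2, 12 by total counts alone) and a median log2 fold change of -0.92. Cyp51 (chr5:4081145-4104746, minus strand), the lanosterol demethylase, had 181, 95.8, 139.6 and 172 CPM in Nrf2 TKO livers, against 332, 302, 303 and 372 CPM in WT livers (log2 fold change -1.15 ± 0.20, adjusted p = 0.0001). Mvk, mevalonate kinase, had 20.2, 15.3, 18 and 10.1 CPM in Nrf2 TKO livers, against 47.6, 50.1, 28.9 and 42 CPM in WT livers (log2 fold change -1.41 ± 0.23, adjusted p = 7.8e-05). All WT libraries were above all Nrf2 TKO libraries for both. Sc5d, a late step of the same pathway, did not pass, at a log2 fold change of 0.03 ± 0.26 (adjusted p = 0.94). Of 24 genes of lipogenesis 1, Elovl5, was called higher and 10 lower. Acaca, acetyl-CoA carboxylase, had 68.8, 48.4, 63.9 and 68.3 CPM in Nrf2 TKO livers, against 137, 129.7, 104 and 87.3 CPM in WT livers (log2 fold change -0.88 ± 0.13, adjusted p = 2.5e-05). Srebf1, the transcription factor that drives fatty acid synthesis, had 152, 103, 103 and 42.3 CPM in Nrf2 TKO livers, against 315, 442, 196 and 273 CPM in WT livers (log2 fold change -1.61 ± 0.31, adjusted p = 0.00033). Scd1, the abundant stearoyl-CoA desaturase, did not pass, with 8567, 5786, 4044 and 9001 CPM in Nrf2 TKO livers, against 6176, 6804, 5457 and 2785 CPM in WT livers (log2 fold change 0.37 ± 0.37, adjusted p = 0.44).

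Of 31 fatty acid oxidation and PPARA target genes 7 were called higher (4 without Nrf2 TKO library 2 or with no filter, 11 by total counts alone), a share near the 22.4% of all genes. A further 10 were lower (6 without Nrf2 TKO library 1, 4 by total counts alone), against 17.1% of all genes. The median log2 fold change was -0.13 and turned to 0.19 by total counts alone. Cyp4a14 (chr4:115486200-115496142, minus strand), a fatty acid omega-hydroxylase, had 986, 2357, 969 and 843 CPM in Nrf2 TKO livers, against 25.4, 3.47, 63 and 12.5 CPM in WT livers (log2 fold change 5.62 ± 1.06, adjusted p = 0.00044). Cyp4a10 (chr4:115518264-115533649, plus strand), a gene nearby on the same chromosome, had 764, 1282, 675 and 406 CPM in Nrf2 TKO livers, against 104, 31.2, 110.1 and 34 CPM in WT livers (log2 fold change 3.48 ± 0.58, adjusted p = 0.00012). The groups did not overlap for either gene, and library 2 was the highest Nrf2 TKO library for both. Without WT library 3 the log2 fold change of Cyp4a14 was 6.53. Against DKO livers both were higher as well, Cyp4a14 with 1289 ± 715 CPM in Nrf2 TKO livers and 25 ± 13.9 CPM in DKO livers (log2 fold change 5.69 ± 1.06, adjusted p = 0.00015). Cyp4a10 averaged 782 ± 367 CPM in Nrf2 TKO livers and 20.6 ± 10.4 CPM in DKO livers (log2 fold change 5.25 ± 0.63, adjusted p = 7.6e-07). Among the members that fell was an enzyme of mitochondrial oxidation. Acadvl, the very long-chain acyl-CoA dehydrogenase, had 36.3, 67.5, 124 and 88.1 CPM in Nrf2 TKO livers, against 192, 205, 190.4 and 183 CPM in WT livers (log2 fold change -1.29 ± 0.23, adjusted p = 0.00019).

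**Figure D3:**
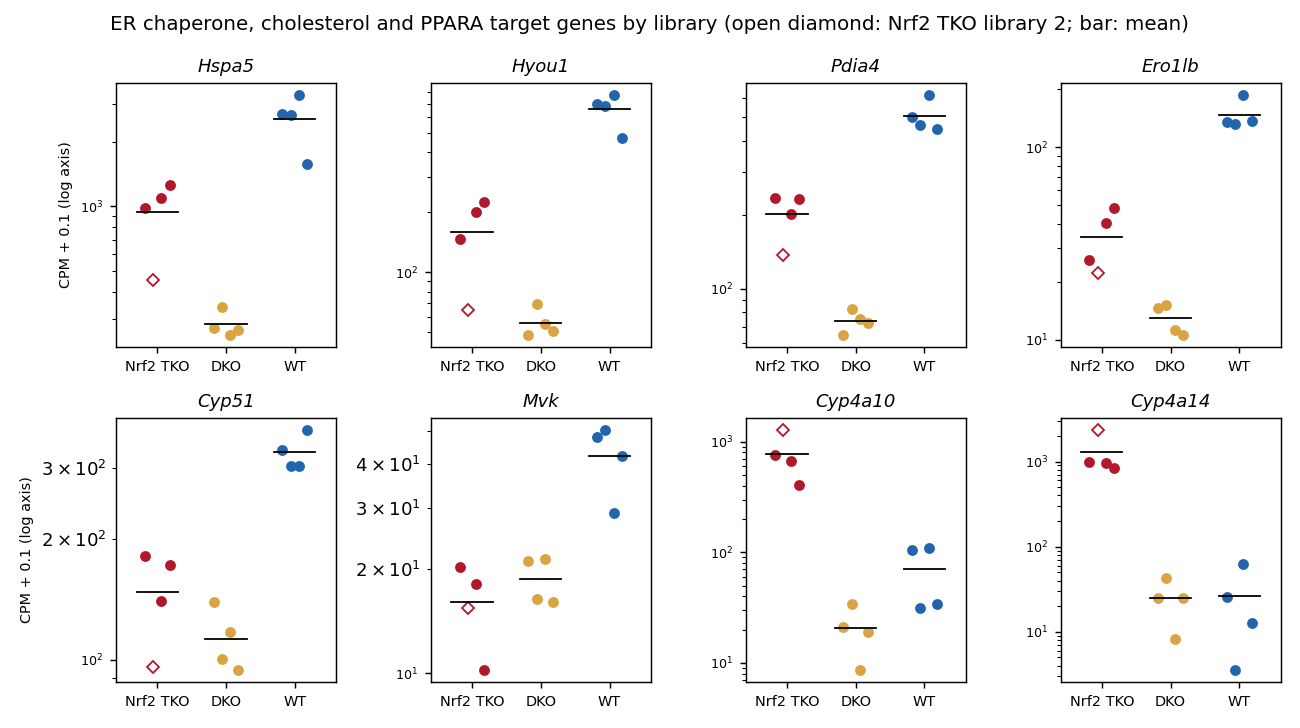
Levels of 4 ER chaperone genes, 2 genes of cholesterol metabolism and 2 PPARA target genes in each Nrf2 TKO, DKO and WT library (CPM plus 0.1, log axis; points are libraries, bars are group means, the open diamond is Nrf2 TKO library 2). The chaperone means of Nrf2 TKO livers lie between those of DKO and WT livers, and Cyp4a10 and Cyp4a14 lie above both.

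Of 39 lysosomal and TFEB target genes 17 were called higher (29 by total counts alone) and 1, Tfe3, lower, with a median log2 fold change of 0.24. The lower count was 3 without Nrf2 TKO library 3 and 2 without library 4. The summed level ran from 6974 to 8850 CPM in the Nrf2 TKO libraries and from 5947 to 6090 CPM in the WT libraries. Rragd (chr4:32983037-33022180, plus strand), a GTPase that recruits mTORC1 to lysosomes and a TFEB target, had 26.6, 39.6, 30.9 and 37.5 CPM in Nrf2 TKO livers, against 1.13, 3.12, 1.59 and 1.1 CPM in WT livers (log2 fold change 4.27 ± 0.40, adjusted p = 1.2e-07). Cd63 (chr10:128900989-128912822, plus strand), a lysosomal membrane protein, had 36.3, 54.2, 24.4 and 35.2 CPM in Nrf2 TKO livers, against 3.18, 2.77, 3.81 and 2.68 CPM in WT livers (log2 fold change 3.59 ± 0.31, adjusted p = 4.3e-08). In both genes all Nrf2 TKO libraries lay above all WT libraries. The cathepsin protease Ctsl had 1723, 1467, 1571 and 2332 CPM in Nrf2 TKO livers, against 929, 914, 637 and 804 CPM in WT livers (log2 fold change 1.11 ± 0.18, adjusted p = 5.8e-05). Another, Ctsb, had 928, 1040.4, 1199 and 1119 CPM in Nrf2 TKO livers, against 789, 742, 699 and 726 CPM in WT livers (log2 fold change 0.54 ± 0.14, adjusted p = 0.0041). Neu1, lysosomal sialidase, had 77.1, 93.8, 84.5 and 74.8 CPM in Nrf2 TKO livers, against 50.1, 51.9, 52.3 and 53.8 CPM in WT livers (log2 fold change 0.67 ± 0.10, adjusted p = 2.4e-05). These 3 were apart as well. Lamp1, a major membrane protein of lysosomes, did not pass, at a log2 fold change of -0.14 ± 0.16 (adjusted p = 0.51). The CLEAR core TCACGTG, bound by TFEB, was in 9 of the 31 members with a promoter (29.0%), against 3.77% of all promoters and 4.29% of genes with one. Among the other lists the share ran from 0%, as in the NRF2 target lists, to 23.5% in oncofetal and liver tumour genes. Overlapping matches on both strands were counted once per promoter. A match is in capitals for 3 members chosen from those that hold the motif with their values known, including Lamp1, which holds further matches.
Mcoln1, chr8:3500423-3500477, plus strand: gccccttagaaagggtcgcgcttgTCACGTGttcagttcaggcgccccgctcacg
Rragc, chr4:123917297-123917351, plus strand: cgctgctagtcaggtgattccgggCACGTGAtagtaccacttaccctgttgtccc
Lamp1, chr8:13159075-13159129, plus strand: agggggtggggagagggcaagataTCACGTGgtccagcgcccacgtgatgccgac
Mcoln1, the lysosomal calcium channel, stood at a log2 fold change of 0.41 ± 0.11 (adjusted p = 0.0041). Rragc, a GTPase partner in mTORC1 recruitment, stood at a log2 fold change of 0.33 ± 0.11 (adjusted p = 0.023), and its groups overlapped. Its call was lost when Nrf2 TKO library 3 or 4 or WT library 1 or 2 was left out (log2 fold changes 0.32, 0.19, 0.32 and 0.29). It was also lost with no filter on low counts (0.33) and in a fit of the Nrf2 TKO and WT libraries alone (0.36).

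ATF4 is the transcription factor of amino acid shortage and of the integrated stress response. Of 26 of its targets 12 were called higher and 1 lower (2 without Nrf2 TKO library 4 or WT library 3), with a median log2 fold change of 1.67. Nupr1 (chr7:126623249-126630861, minus strand), a stress-induced chromatin protein, had 77.9, 85.3, 41.5 and 46.6 CPM in Nrf2 TKO livers, against 1.7, 1.5, 1.16 and 1.1 CPM in WT livers (log2 fold change 5.51 ± 0.43, adjusted p = 2e-08). Vldlr, a lipoprotein receptor, had 14.5, 28.5, 7.85 and 7.15 CPM in Nrf2 TKO livers, against 0.794, 0.462, 1.16 and 0.609 CPM in WT livers (log2 fold change 4.23 ± 0.57, adjusted p = 8.3e-06). Both were low in WT livers and highest in Nrf2 TKO library 2. Phgdh, the entry enzyme of serine synthesis, had 4.16, 7.58, 1.45 and 3.28 CPM in Nrf2 TKO livers, against 0.340, 0.231, 0.106 and 0.244 CPM in WT livers (log2 fold change 4.14 ± 0.59, adjusted p = 1.4e-05). Sesn2, an inhibitor of mTORC1, had 19.7, 27.1, 26.2 and 19.5 CPM in Nrf2 TKO livers, against 7.49, 7.97, 7.3 and 9.26 CPM in WT livers (log2 fold change 1.53 ± 0.20, adjusted p = 5.1e-06). For these 4 genes no Nrf2 TKO library was as low as a WT library. Shmt2, the mitochondrial serine hydroxymethyltransferase, was the member that fell, with 149.5, 123, 199 and 129 CPM in Nrf2 TKO livers, against 319, 325, 251 and 239 CPM in WT livers (log2 fold change -0.92 ± 0.15, adjusted p = 5.4e-05). The core of the C/EBP-ATF response element, TGATGNAA on either strand, was in 8 of 24 members with a promoter (33.3%), against 3.97% of all promoters and 4.51% of genes with one. It is in capitals, as its reverse complement, in the 2 members named above that hold it.
Nupr1, chr7:126625549-126625604, minus strand: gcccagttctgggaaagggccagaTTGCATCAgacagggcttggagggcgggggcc
Vldlr, chr19:27216796-27216851, plus strand: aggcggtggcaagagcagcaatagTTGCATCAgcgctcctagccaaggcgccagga

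Cholangiocyte and ductular genes stayed far above WT. Of 28 tested, 25 were called higher (24 without Nrf2 TKO library 2) and 0 lower, and the median log2 fold change was 3.76. The summed level of the list ran from 2629 to 4140 CPM in the Nrf2 TKO libraries and from 780.6 to 1025 CPM in the WT libraries. Spp1 (chr5:104435118-104441050, plus strand), osteopontin, had 1449.7, 2667, 1610.2 and 2419 CPM in Nrf2 TKO livers, against 73.9, 74, 50.4 and 76.2 CPM in WT livers (log2 fold change 4.89 ± 0.31, adjusted p = 3.5e-10). Sox4 (chr13:28948919-28953713, minus strand), a transcription factor of bile duct development, had 21.7, 29.9, 18.5 and 13.6 CPM in Nrf2 TKO livers, against 0.794, 0.231, 1.16 and 0.853 CPM in WT livers (log2 fold change 4.76 ± 0.35, adjusted p = 4.1e-09). Library 2 was the highest Nrf2 TKO library of both. Bicc1, an RNA-binding protein, had 71.3, 98.9, 54 and 60.9 CPM in Nrf2 TKO livers, against 3.74, 6.12, 4.87 and 6.58 CPM in WT livers (log2 fold change 3.74 ± 0.30, adjusted p = 1.6e-08). Tspan8, a tetraspanin of epithelia, had 23.5, 44.7, 36.8 and 48.5 CPM in Nrf2 TKO livers, against 2.16, 1.27, 2.65 and 1.22 CPM in WT livers (log2 fold change 4.37 ± 0.34, adjusted p = 1.3e-08). No Nrf2 TKO library overlapped WT for these genes. Krt18, which hepatocytes express as well, did not pass, at a log2 fold change of -0.16 ± 0.20 (adjusted p = 0.56). Against DKO, 25 members were called lower in Nrf2 TKO livers and 0 higher. Spp1 averaged 2036 ± 597 CPM in Nrf2 TKO livers and 7397 ± 1443 CPM in DKO livers (log2 fold change -1.86 ± 0.27, adjusted p = 4.8e-06). Sox4 averaged 20.9 ± 6.84 CPM in Nrf2 TKO livers and 86.3 ± 10.8 CPM in DKO livers (log2 fold change -2.04 ± 0.24, adjusted p = 3.4e-07). Mmp7 (chr9:7692090-7699585, plus strand), a metalloproteinase made by injured duct cells and among the largest increases of the comparison, had 79.7, 215, 235 and 379 CPM in Nrf2 TKO livers, against 0.113, 0.231, 0.212 and 0.487 CPM in WT livers (log2 fold change 9.73 ± 1.09, adjusted p = 1.9e-06). Whether there were more duct cells or more such RNA in other cells cannot be told apart here.

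YAP is the effector of the Hippo pathway and acts through TEAD factors. Of 18 of their targets and components 11 were called higher (9 without Nrf2 TKO library 2) and 1 lower, with a median log2 fold change of 1.28. The lower member was Yap1 itself. The lower count was 0 without Nrf2 TKO library 1 or WT library 1, 2 or 3, and without Nrf2 TKO library 2 it was 1, then Nt5e in place of Yap1. Ankrd1 (chr19:36111961-36120099, minus strand), a classical target, had 48.9, 51.7, 21.9 and 28.7 CPM in Nrf2 TKO livers, against 0.681, 0.809, 1.16 and 0 CPM in WT livers (log2 fold change 5.78 ± 0.65, adjusted p = 1.9e-06). Tead2 had 3.86, 5.95, 3.39 and 4.25 CPM in Nrf2 TKO livers, against 0.681, 0.578, 0.953 and 0.609 CPM in WT livers (log2 fold change 2.61 ± 0.33, adjusted p = 2.9e-06). Myof, a membrane repair protein, had 14.3, 18.1, 12.1 and 15.1 CPM in Nrf2 TKO livers, against 2.5, 2.54, 1.16 and 1.83 CPM in WT livers (log2 fold change 2.89 ± 0.36, adjusted p = 3.9e-06). All 3 genes separated the groups. Of 24 oncofetal and liver tumour genes 14 were called higher (12 without Nrf2 TKO library 2) and 0 lower (1 without library 4). H19 (chr7:142575529-142578143, minus strand), an imprinted fetal RNA, had 19.5, 95.8, 5.33 and 3.77 CPM in Nrf2 TKO livers, against 0.567, 0, 0 and 0.365 CPM in WT livers (log2 fold change 7.04 ± 1.24, adjusted p = 0.00023), with library 2 far above the others, and without it the log2 fold change was 5.32. Without WT library 1 it was 7.99. Scd2, a desaturase of fetal liver and brain, had 69.3, 44.8, 28.7 and 26.4 CPM in Nrf2 TKO livers, against 11.3, 8.43, 5.72 and 4.75 CPM in WT livers (log2 fold change 2.48 ± 0.37, adjusted p = 3e-05). Bex1 had 3.27, 11.4, 7.36 and 10.7 CPM in Nrf2 TKO livers, against 0, 0.116, 0.423 and 0.122 CPM in WT livers (log2 fold change 5.51 ± 0.73, adjusted p = 6.8e-06), and 6.54 on the log2 scale without WT library 3.

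**Figure D4:**
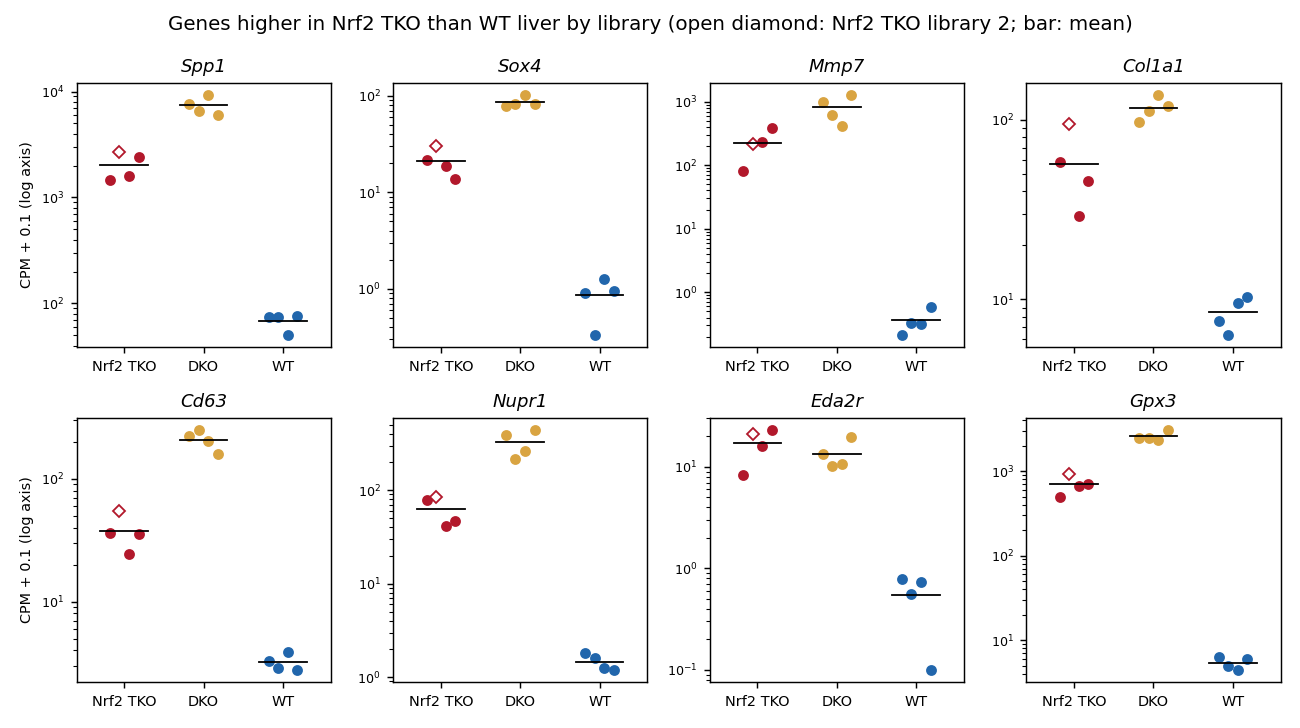
Levels of duct, fibrosis, lysosome, stress and p53 target genes in each Nrf2 TKO, DKO and WT library (CPM plus 0.1, log axis; points are libraries, bars are group means, the open diamond is Nrf2 TKO library 2). In all 8 panels every Nrf2 TKO library lies above every WT library.

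Of 38 stellate cell and fibrosis genes 28 were called higher (27 without Nrf2 TKO library 2) and 1, the abundant fibronectin gene Fn1, lower. The median log2 fold change was 1.57, and the summed level ran from 2841 to 3858 CPM in the Nrf2 TKO libraries and from 1964 to 2999 CPM in the WT libraries. Fn1, much the most abundant of the members named here in WT livers, had 745, 1006, 1383 and 1625 CPM in Nrf2 TKO livers, against 2404, 2181.6, 1308 and 2565 CPM in WT livers (log2 fold change -0.83 ± 0.22, adjusted p = 0.0048), and its groups overlapped. Its call was lost in a fit of the Nrf2 TKO and WT libraries alone (log2 fold change -0.81). Col1a1 (chr11:94936224-94953042, plus strand) had 58.1, 94.9, 28.9 and 45.8 CPM in Nrf2 TKO livers, against 7.49, 6.24, 9.42 and 10.2 CPM in WT livers (log2 fold change 2.77 ± 0.35, adjusted p = 5.1e-06). Col3a1 (chr1:45311538-45349706, plus strand) had 223, 291, 82.3 and 106 CPM in Nrf2 TKO livers, against 23, 20.8, 33.1 and 17.9 CPM in WT livers (log2 fold change 2.89 ± 0.37, adjusted p = 6.3e-06). These fibrillar collagens were lowest in Nrf2 TKO library 3, which was still above all WT libraries. Tgfb2, a fibrogenic ligand, had 7.82, 12.3, 4.55 and 3.77 CPM in Nrf2 TKO livers, against 0.908, 0.693, 0.741 and 0.365 CPM in WT livers (log2 fold change 3.38 ± 0.42, adjusted p = 3.7e-06). Acta2, the actin of activated stellate cells, did not pass, at a log2 fold change of 0.64 ± 0.61 (adjusted p = 0.42).

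Col5a2 (chr1:45374321-45503282, minus strand), a chain of type V collagen, was the collagen gene among the largest increases. It had 1578, 476, 532 and 459.9 CPM in Nrf2 TKO livers, against 5.11, 3.58, 3.81 and 3.41 CPM in WT livers (log2 fold change 7.58 ± 0.53, adjusted p = 3.6e-09), and 37 ± 4.68 CPM in DKO livers. Nrf2 TKO library 1 was far above the other libraries, and without it the log2 fold change against WT was 6.93. Against DKO the log2 fold change was 4.36 ± 0.44 (adjusted p = 5.3e-08). In the other genotypes of the series it ranged from 171 to 399.8 CPM in livers labelled Atg5/TSC1/p62 TKO, from 196 to 672 CPM in those labelled TSC1 KO and from 8.04 to 19.5 CPM in those labelled Atg5 KO. Col3a1, which lies nearby, had 218 ± 28 CPM in DKO livers.

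Markers of recruited and lipid-associated macrophages were high, with 14 of 19 called higher (13 without Nrf2 TKO library 2) and 0 lower, a median log2 fold change of 1.43, and a summed level from 294.7 to 775.9 CPM in the Nrf2 TKO libraries and from 154.8 to 287.2 CPM in the WT libraries. Lpl (chr8:68880491-68907448, plus strand), lipoprotein lipase, had 311, 326, 78.9 and 78.5 CPM in Nrf2 TKO livers, against 23.6, 27.3, 26.8 and 14.7 CPM in WT livers (log2 fold change 3.10 ± 0.42, adjusted p = 1e-05). Itgax, an integrin of dendritic cells and inflammatory macrophages, had 4.26, 6.32, 2.81 and 4.73 CPM in Nrf2 TKO livers, against 1.36, 0.462, 0.953 and 0.731 CPM in WT livers (log2 fold change 2.36 ± 0.41, adjusted p = 0.00011). Gpnmb, a lysosomal glycoprotein of lipid-laden macrophages, had 2.08, 3.87, 1.16 and 1.93 CPM in Nrf2 TKO livers, against 0.113, 0.116, 0.106 and 0.244 CPM in WT livers (log2 fold change 3.93 ± 0.70, adjusted p = 0.00019). Nrf2 TKO libraries were above WT libraries throughout for these 3 genes. Of 15 markers of resident Kupffer cells 0 were called higher and 2, Cd163 and Cd5l, lower (1 without Nrf2 TKO library 2, WT library 1 or WT library 2, 1 by total counts alone or with no filter, and 4 in a fit of the Nrf2 TKO and WT libraries alone), and the median log2 fold change was -0.45. The share called lower was below the 17.1% of all genes. Cd163, a haemoglobin scavenger receptor, had 1.29, 0.892, 3.78 and 2.32 CPM in Nrf2 TKO livers, against 19.7, 14.9, 10.7 and 13.6 CPM in WT livers (log2 fold change -2.84 ± 0.55, adjusted p = 0.00035). Clec4f, specific to Kupffer cells in mice, did not pass, with 45.3, 31.7, 36.7 and 32.4 CPM in Nrf2 TKO livers, against 82.4, 85.2, 59.5 and 49 CPM in WT livers (log2 fold change -0.92 ± 0.53, adjusted p = 0.18), although the groups did not overlap. It passed in a fit of the Nrf2 TKO and WT libraries alone (log2 fold change -0.89).

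Of 20 lymphocyte markers 11 were called higher (10 without Nrf2 TKO library 2) and 1, Cd4, lower, a call lost when any 1 of Nrf2 TKO libraries 1, 2 and 4 and WT libraries 1 and 2 was left out. The summed level ran from 29.3 to 108.8 CPM in the Nrf2 TKO libraries and from 18.3 to 22.2 CPM in the WT libraries. Jchain, of antibody-secreting cells, had 48, 51.4, 12.4 and 11.5 CPM in Nrf2 TKO livers, against 1.7, 2.77, 3.6 and 2.19 CPM in WT livers (log2 fold change 3.58 ± 0.65, adjusted p = 0.00026). Lck, of T cells, had 4.26, 2.97, 1.94 and 1.74 CPM in Nrf2 TKO livers, against 1.13, 0.462, 0.635 and 0.609 CPM in WT livers (log2 fold change 1.92 ± 0.38, adjusted p = 0.00044). Ccl5, a chemokine of T and natural killer cells, had 9.41, 5.95, 1.65 and 3.57 CPM in Nrf2 TKO livers, against 0.908, 1.04, 0.847 and 1.1 CPM in WT livers (log2 fold change 2.40 ± 0.48, adjusted p = 0.00055). Nrf2 TKO libraries 1 and 2 were the higher ones for all of these. In a fit of the Nrf2 TKO and WT libraries alone 3 of the list were called higher. Of 9 neutrophil markers 0 were called in either direction, and 3 higher without Nrf2 TKO library 3 and 1 without Nrf2 TKO library 1 or 2 or WT library 1 or 4. Of 7 erythroid markers 0 were called higher and 1, Alas2, lower, a share near the 17.1% of all genes. Of 20 sinusoidal endothelial markers 3, Cd34, Lyve1 and Stab2, were called higher (2 without Nrf2 TKO library 2) and 0 lower, and 17 did not pass. The share called higher was below the 22.4% of all genes. The median log2 fold change of this list was -0.03, and -0.23 without library 2. Stab2, a scavenger receptor of these cells, had 46.8, 67.2, 79.4 and 54.6 CPM in Nrf2 TKO livers, against 37.7, 32.1, 35.8 and 17.3 CPM in WT livers (log2 fold change 1.01 ± 0.19, adjusted p = 0.00022).

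Of 27 interferon-stimulated genes 16 were called higher (13 without Nrf2 TKO library 2, 10 without library 4) and 1, Oasl1, lower (2 without library 4), with a median log2 fold change of 1.07. Usp18 (chr6:121245906-121270917, plus strand), which dampens interferon signalling, had 33.3, 33.2, 30.0 and 42.6 CPM in Nrf2 TKO livers, against 8.74, 8.09, 8.79 and 4.75 CPM in WT livers (log2 fold change 2.19 ± 0.27, adjusted p = 2.4e-06). Cxcl9, a chemokine that attracts T cells, had 47.4, 16.7, 16.4 and 20.7 CPM in Nrf2 TKO livers, against 7.6, 5.54, 7.09 and 4.87 CPM in WT livers (log2 fold change 2.00 ± 0.36, adjusted p = 0.00022). Ifi27l2a had 11.1, 19.5, 15.1 and 24.3 CPM in Nrf2 TKO livers, against 4.65, 3.93, 5.82 and 3.65 CPM in WT livers (log2 fold change 1.95 ± 0.39, adjusted p = 0.00054). None of the 3 overlapped. Against DKO livers Cxcl9 was higher, with 25.3 ± 14.9 CPM in Nrf2 TKO livers and 3.33 ± 1.82 CPM in DKO livers (log2 fold change 2.92 ± 0.37, adjusted p = 8.8e-07). Of 24 chemokines and cytokines 7 were called higher (6 without Nrf2 TKO library 2, 11 by total counts alone). That share was not far above the 22.4% of all genes. Cxcl14, the 1 member called lower, lost its call when any 1 of Nrf2 TKO libraries 1, 2 and 3 and WT libraries 2 and 4 was left out, and 2 were lower without Nrf2 TKO library 4. Cxcl16, a chemokine and scavenger receptor, had 25.9, 26.2, 14.9 and 24.7 CPM in Nrf2 TKO livers, against 9.3, 6.58, 7.83 and 4.87 CPM in WT livers (log2 fold change 1.68 ± 0.25, adjusted p = 2.3e-05).

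Of 30 cell cycle genes 22 were called higher (18 without Nrf2 TKO library 2) and 0 lower, and the median log2 fold change was 1.53. Ccnd1 (chr7:144929931-144939925, minus strand), cyclin D1, had 32.4, 61.2, 45 and 46.4 CPM in Nrf2 TKO livers, against 16, 14.3, 11.2 and 5.97 CPM in WT livers (log2 fold change 1.96 ± 0.31, adjusted p = 4.8e-05). Ccnd2 had 43.2, 57.2, 40.6 and 39 CPM in Nrf2 TKO livers, against 9.53, 12.4, 14 and 7.31 CPM in WT livers (log2 fold change 2.06 ± 0.26, adjusted p = 4.1e-06). Top2a, the topoisomerase of dividing cells, had 7.92, 7.95, 3.87 and 4.06 CPM in Nrf2 TKO livers, against 0.908, 0.231, 1.38 and 0.487 CPM in WT livers (log2 fold change 2.95 ± 0.49, adjusted p = 8.1e-05). The groups did not overlap for these genes. Pcna, the sliding clamp of DNA replication, did not pass, at a log2 fold change of 0.34 ± 0.16 (adjusted p = 0.089). It was called without Nrf2 TKO library 3 (log2 fold change 0.43) and by total counts alone (0.68).

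Of 18 p53 targets 14 were called higher, with and without Nrf2 TKO library 2, and 1, Perp, lower (2 without Nrf2 TKO library 4, 0 by total counts alone). The median log2 fold change was 1.58. Eda2r (chrX:97333840-97377216, minus strand), a death-domain receptor, had 8.22, 20.9, 15.8 and 23.1 CPM in Nrf2 TKO livers, against 0.681, 0.462, 0.635 and 0 CPM in WT livers (log2 fold change 5.20 ± 0.51, adjusted p = 1.4e-07). Phlda3, an inhibitor of AKT, had 8.71, 19.9, 9.78 and 11.9 CPM in Nrf2 TKO livers, against 0.681, 1.04, 0.741 and 0.731 CPM in WT livers (log2 fold change 3.97 ± 0.40, adjusted p = 1.8e-07). Both were under 1.1 CPM in each WT library. Plk2, a stress-induced kinase, had 50.9, 80.1, 41.1 and 41.4 CPM in Nrf2 TKO livers, against 6.81, 11.9, 12.5 and 7.31 CPM in WT livers (log2 fold change 2.47 ± 0.21, adjusted p = 3.2e-08). Tnfrsf10b, a death receptor, had 4.16, 8.18, 4.46 and 8.3 CPM in Nrf2 TKO livers, against 0.567, 0.231, 0.423 and 0.487 CPM in WT livers (log2 fold change 3.85 ± 0.43, adjusted p = 7.1e-07). Every Nrf2 TKO library was above every WT library for these genes. Against DKO 1 member was called higher and 7 lower. Eda2r had 13.4 ± 4.33 CPM in DKO livers, and its log2 fold change against DKO, 0.35 ± 0.35 (adjusted p = 0.41), did not pass the test.

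Of 24 transcription factors of hepatocytes 0 were called higher (1 without Nrf2 TKO library 4 or by total counts alone) and 11 lower (9 without library 2, 7 by total counts alone), with a median log2 fold change of -0.54. Cebpa (chr7:35119293-35121928, plus strand), which sustains hepatocyte gene expression, had 298, 275, 385 and 284 CPM in Nrf2 TKO livers, against 476, 587, 527 and 561 CPM in WT livers (log2 fold change -0.79 ± 0.14, adjusted p = 0.0001). Rxra, the partner of many nuclear receptors, had 151, 195, 358 and 384 CPM in Nrf2 TKO livers, against 621, 611, 435 and 639 CPM in WT livers (log2 fold change -1.09 ± 0.23, adjusted p = 0.00074). Hnf4a, the master regulator of the hepatocyte, had 332, 262, 616 and 957 CPM in Nrf2 TKO livers, against 902, 963, 922 and 837 CPM in WT livers (log2 fold change -0.74 ± 0.25, adjusted p = 0.021). Its groups overlapped through library 4, and its call was lost without Nrf2 TKO library 1 or 2 or WT library 2. The call was also lost by total counts alone (log2 fold change -0.47) and in a fit of the Nrf2 TKO and WT libraries alone (-0.72). Of 42 secreted proteins of hepatocytes 0 were called higher (1 without Nrf2 TKO library 3 or WT library 4, 4 by total counts alone) and 17 lower. The lower count was 11 without Nrf2 TKO library 1 or 2 or WT library 1, and 11 by total counts alone. The clotting factor F11 had 55.4, 34.8, 49.7 and 26.7 CPM in Nrf2 TKO livers, against 96.9, 131, 68.2 and 98.9 CPM in WT livers (log2 fold change -1.25 ± 0.23, adjusted p = 0.00022). Another, F7, had 65.1, 68.9, 78.9 and 75.7 CPM in Nrf2 TKO livers, against 172, 153, 109 and 183 CPM in WT livers (log2 fold change -1.09 ± 0.18, adjusted p = 5.7e-05), and neither overlapped. Against DKO livers 41 of the 42 were called higher in Nrf2 TKO livers and 0 lower, with Alb at 45979.6 ± 6198 CPM in Nrf2 TKO livers and 6655 ± 646 CPM in DKO livers (log2 fold change 2.79 ± 0.28, adjusted p = 2.6e-08). By the summed levels given above, duct, macrophage and lymphocyte markers were higher in all 4 Nrf2 TKO libraries than in any WT library, while those of fibrosis overlapped. Abundant members weigh most in such sums. The fibrosis sum in WT livers was mostly Fn1, which was called lower, while most members of that list were called higher. The macrophage sums nearly met, at 294.7 CPM in Nrf2 TKO and 287.2 CPM in WT livers, and Lpl held a large part of them in Nrf2 TKO livers. With Lpl left out, the macrophage sums of the groups overlapped. Spp1 held most of the duct sum in each Nrf2 TKO library, and Jchain held a large part of the lymphocyte sum. The part of these cells in the hepatocyte levels was not tested.

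Acute-phase genes varied among libraries of both groups. Of 26, 2, Hamp2 and Il1rn, were called higher and 11 lower. The lower count ranged from 3 without WT library 4 to 19 without Nrf2 TKO library 4, with 6 without Nrf2 TKO library 1, 5 without library 2, 6 without library 3 and 7 without WT library 1. Hp, haptoglobin, had 2273, 1329.7, 3683 and 6175 CPM in Nrf2 TKO livers, against 12294, 10421, 6177 and 32516 CPM in WT livers (log2 fold change -2.19 ± 0.46, adjusted p = 0.00077), and WT library 4 was the highest of all. Without it the log2 fold change was -1.48. Itih3, an inhibitor chain of the plasma, had 451, 281, 635 and 1392 CPM in Nrf2 TKO livers, against 3020.0, 2567, 1423 and 3325 CPM in WT livers (log2 fold change -1.91 ± 0.35, adjusted p = 0.00023), and -2.51 on the log2 scale without Nrf2 TKO library 4. Hamp2 (chr7:30922372-30924681, minus strand), a hepcidin gene that differs from the iron regulator Hamp, rose, with 335, 493, 78.7 and 29.2 CPM in Nrf2 TKO livers, against 2.27, 2.89, 1.59 and 0.487 CPM in WT livers (log2 fold change 7.0 ± 0.99, adjusted p = 2.6e-05). Against DKO it was higher as well, with 234 ± 219 CPM in Nrf2 TKO livers and 14.4 ± 6.16 CPM in DKO livers (log2 fold change 4.02 ± 0.79, adjusted p = 0.00027). Without Nrf2 TKO library 2 its log2 fold change was 6.34 against WT and 3.36 against DKO.

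Of 22 pericentral genes, expressed around the central vein, 0 were called higher and 8 lower (7 without Nrf2 TKO library 2, 5 without WT library 2 or 4, 4 by total counts alone). Cyp2c29 had 560.2, 594, 606 and 575 CPM in Nrf2 TKO livers, against 1974, 2137, 2343 and 1581 CPM in WT livers (log2 fold change -1.78 ± 0.33, adjusted p = 0.00023). Lgr5, a Wnt target of the cells next to the vein, had 3.66, 7.14, 3.78 and 1.55 CPM in Nrf2 TKO livers, against 17.5, 17.8, 8.15 and 10.6 CPM in WT livers (log2 fold change -1.73 ± 0.39, adjusted p = 0.0013). Neither gene's groups overlapped. Of 28 urea cycle and periportal genes 2, Aldh1b1 and Hsd17b13, were called higher (1 without Nrf2 TKO library 1 or 3 or WT library 3, 3 without Nrf2 TKO library 2) and 3, Arg1, Nags and Slc25a13, lower (1 without Nrf2 TKO library 2 or WT library 1 or 2). By total counts alone 10 were higher and 1 lower. In the main fit both shares were below those of all genes, 22.4% higher and 17.1% lower. Hsd17b13, a lipid droplet enzyme, rose, with 512, 596, 854 and 687 CPM in Nrf2 TKO livers, against 363, 361, 444 and 321 CPM in WT livers (log2 fold change 0.83 ± 0.17, adjusted p = 0.00056). Slc25a13, the mitochondrial aspartate-glutamate carrier, fell, with 122, 126, 220.4 and 154 CPM in Nrf2 TKO livers, against 267, 273, 254 and 252 CPM in WT livers (log2 fold change -0.75 ± 0.17, adjusted p = 0.0016). Cps1, the entry enzyme of the urea cycle, did not pass, at a log2 fold change of -0.30 ± 0.33 (adjusted p = 0.49). Against DKO livers 20 of the 22 pericentral and 25 of the 28 periportal genes were called higher in Nrf2 TKO livers.

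Of 15 genes of bile acid synthesis 0 were called higher (1 without Nrf2 TKO library 1) and 5, Acox2, Amacr, Cyp27a1, Cyp7b1 and Hsd17b4, lower. The lower count was 2 without Nrf2 TKO library 2, 9 without library 3, 3 without WT library 1 or 2 and 2 by total counts alone. Cyp7b1 (chr3:18071950-18243338, minus strand), the oxysterol hydroxylase of the alternative pathway, had 27.7, 12, 228 and 25.4 CPM in Nrf2 TKO livers, against 542, 869.6, 701 and 880.0 CPM in WT livers (log2 fold change -3.35 ± 0.61, adjusted p = 0.00027). Nrf2 TKO library 3 was far above the other Nrf2 TKO libraries and still below WT. Without it the log2 fold change was -5.12. Of 18 transporters of bile acids and biliary lipids 3, Abcb1a, Abcc4 and Slco1a4, were called higher and 5, Abcc3, Abcg8, Atp8b1, Slc22a7 and Slco1a1, lower (8 without Nrf2 TKO library 3). Their share called higher was below the 22.4% of all genes. Slc22a7 (chr17:46432183-46438457, minus strand), an organic anion transporter, had 1.39, 0.818, 1.65 and 2.8 CPM in Nrf2 TKO livers, against 102, 127, 30.1 and 57 CPM in WT livers (log2 fold change -5.59 ± 0.50, adjusted p = 8.7e-08). Slco1a1 had 80.5, 14, 128 and 63.3 CPM in Nrf2 TKO livers, against 296, 322, 490.4 and 391 CPM in WT livers (log2 fold change -2.39 ± 0.45, adjusted p = 0.00034). Of 37 drug-metabolising cytochromes and related genes 5, Cyp2b9, Cyp2b10, Cyp2c38, Cyp4a10 and Cyp4a14, were called higher (3 without Nrf2 TKO library 2) and 10 lower (9 without it, 6 by total counts alone). Their share called higher was below the 22.4% of all genes as well. Cyp4a10 and Cyp4a14 are also PPARA targets given above, and Cyp2b9 is also on the female-biased list below. Cyp3a11, the major inducible member, did not pass, with 4407, 4726, 7104 and 4059 CPM in Nrf2 TKO livers, against 5144, 3044, 5390.0 and 2284 CPM in WT livers (log2 fold change 0.36 ± 0.36, adjusted p = 0.45). Of 29 genes of glycolysis and glucose output 5, Eno2, Hk1, Ldhb, Pfkp and Pkm, were called higher (4 without Nrf2 TKO library 2, 10 by total counts alone) and 6 lower (2 without Nrf2 TKO library 1, 3 without library 2, 1 by total counts alone). Both shares were near those of all genes, 22.4% higher and 17.1% lower, and the median log2 fold change was -0.12. Ldha had 342, 369, 574 and 838 CPM in Nrf2 TKO livers, against 1155, 1123, 941 and 1310.5 CPM in WT livers (log2 fold change -1.09 ± 0.23, adjusted p = 0.00061). Pfkp, a phosphofructokinase that adult hepatocytes express weakly, had 10.2, 18.2, 12.2 and 17 CPM in Nrf2 TKO livers, against 4.2, 3.93, 3.07 and 2.31 CPM in WT livers (log2 fold change 2.09 ± 0.24, adjusted p = 1.1e-06).

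Genes that male and female livers are known to express at different levels were given with and without library 2. Of 21 major urinary proteins, pheromone carriers made mostly by male liver, 0 were called higher and 16 lower (11 without Nrf2 TKO library 2, 9 without library 1, 10 without WT library 2), and the median log2 fold change was -2.79, and -2.42 without library 2. Mup7 (chr4:60066469-60070475, minus strand) had 11.4, 0.669, 214 and 83.2 CPM in Nrf2 TKO livers, against 3872, 4257, 3198 and 1611 CPM in WT livers (log2 fold change -5.39 ± 1.22, adjusted p = 0.0019). Mup20 did not pass the test, with 3625, 311, 5072 and 3204 CPM in Nrf2 TKO livers, against 3673, 4552, 5551 and 3667 CPM in WT livers (log2 fold change -0.51 ± 0.60, adjusted p = 0.52), and Nrf2 TKO library 2 was far below the other 7 libraries. Genes of this cluster are near-identical copies, so reads may have been counted for a wrong member. Of 18 male-biased genes, Mup20 among them, 0 were called higher and 8 lower (9 without Nrf2 TKO library 2). This list also shares C6, C8a, Cyp2c69, Cyp2d9, Cyp2u1, Cyp4a12a, Cyp7b1, Elovl3, Gstp1 and Slco1a1 with lists above. It holds Moxd1, described below, too, so falls of shared members are not separate results. Hsd3b5, a steroid reductase, had 1.19, 0.149, 35.8 and 1.45 CPM in Nrf2 TKO livers, against 199.6, 271, 378 and 178 CPM in WT livers (log2 fold change -4.75 ± 0.95, adjusted p = 0.00068). Serpina1e, an antitrypsin copy, did not pass, with 8488, 38.8, 10954 and 7476 CPM in Nrf2 TKO livers, against 10908, 14971, 14841 and 15984 CPM in WT livers (log2 fold change -1.07 ± 0.90, adjusted p = 0.36). Library 2 was the lowest for each of these genes, and for Mup7 and Hsd3b5 the other 3 Nrf2 TKO libraries were below all WT libraries too. Library 3 was the highest of these 3 for both, and without it the log2 fold change was -6.67 for Mup7 and -8.19 for Hsd3b5.

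Of 12 female-biased genes 7 were called higher (5 without Nrf2 TKO library 2, 3 in a fit of the Nrf2 TKO and WT libraries alone) and 0 lower (1, Cyp2c40, without library 2). The median log2 fold change was 3.44, and 1.62 without library 2. Cyp2b9 (chr7:26173411-26210661, plus strand), a cytochrome of female liver, had 8.32, 275, 21.3 and 20.6 CPM in Nrf2 TKO livers, against 0.227, 0, 0.106 and 0 CPM in WT livers (log2 fold change 9.74 ± 1.66, adjusted p = 0.00017). Summed over libraries, 4214 counts in Nrf2 TKO livers against 3 in WT livers gave a ratio of 1116 after scaling by library size. Its 95% interval, 381 to 5412, covers counting error only and not the spread between libraries, and library 2 held most of the counts. Without library 2 the log2 fold change was 7.45, and without WT library 1 it was 10.74. Abcd2, a peroxisomal transporter, had 34.5, 58, 15.4 and 7.82 CPM in Nrf2 TKO livers, against 2.95, 1.04, 2.33 and 0.853 CPM in WT livers (log2 fold change 4.0 ± 0.53, adjusted p = 7.9e-06), and without library 2 its log2 fold change was 3.40.

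**Figure D5:**
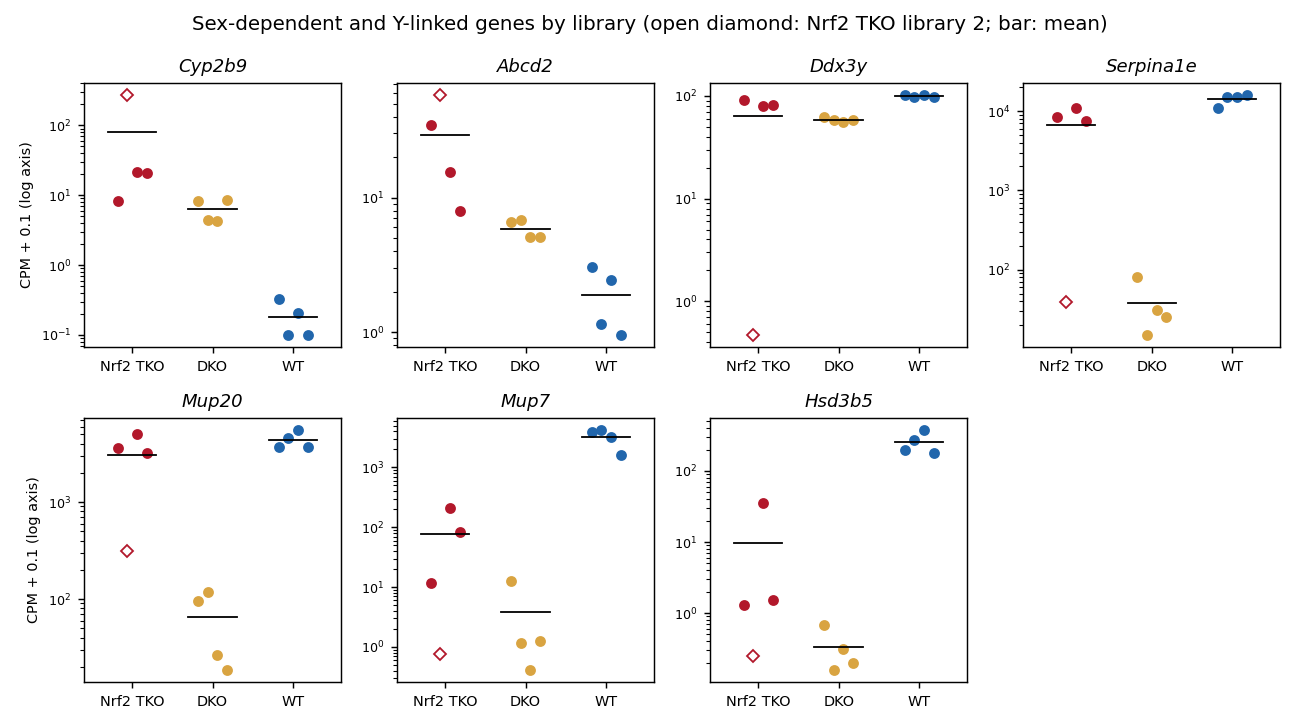
Levels of 2 female-biased genes, the Y-linked Ddx3y and 4 male-biased genes in each Nrf2 TKO, DKO and WT library (CPM plus 0.1, log axis; points are libraries, bars are group means, the open diamond is Nrf2 TKO library 2). Library 2 stands apart from the other 3 Nrf2 TKO libraries in Cyp2b9, Ddx3y, Serpina1e and Mup20, while those 3 lie above WT in Cyp2b9 and below it in Mup7 and Hsd3b5.

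The remaining largest increases, among called genes whose groups did not overlap and whose higher group averaged 5 CPM or more, were Gpx3, Cbx3-ps8, Tbx1 and Prm1. Gpx3 (chr11:54902453-54910377, plus strand), the secreted glutathione peroxidase, had 496, 918, 663 and 706 CPM in Nrf2 TKO livers, against 6.24, 4.85, 4.34 and 5.85 CPM in WT livers (log2 fold change 7.03 ± 0.35, adjusted p = 7.1e-12). Its groups lay far apart, and DKO livers were higher still, with 696 ± 174 CPM in Nrf2 TKO livers and 2592 ± 334 CPM in DKO livers (log2 fold change -1.90 ± 0.27, adjusted p = 3.7e-06). Prm1 (chr16:10796326-10805839, minus strand), a protamine of sperm chromatin, had 8.61, 7.21, 6.88 and 5.12 CPM in Nrf2 TKO livers, against 0, 0, 0 and 0 CPM in WT livers. It was at least 81.5-fold higher against a floor of 3 counts over the WT group. Its 4 Nrf2 TKO libraries held 308 counts, and the 20 other libraries of the series held 1, with 0 in 19 of them. Tbx1, a transcription factor of the developing pharynx, had 8.51, 6.62, 2.52 and 3.67 CPM in Nrf2 TKO livers, against 0, 0, 0 and 0 CPM in WT livers, at least 63.3-fold higher. It had 54.1 ± 13.3 CPM in DKO livers. Cbx3-ps8, a pseudogene whose reads may belong to its parent gene, had 5.35, 12.4, 7.65 and 17.9 CPM in Nrf2 TKO livers, against 0, 0, 0 and 0 CPM in WT livers, at least 128-fold higher, and 20.6 ± 6.69 CPM in DKO livers.

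The largest decreases by the same rule that were not yet described were Moxd1, Capn8, Dct, Serpina12, Serpina4-ps1, Ces2c, Mup9 and Mup12. Moxd1 (chr10:24223517-24302790, plus strand), a monooxygenase-like protein, had 0.198, 0, 0.194 and 0.0966 CPM in Nrf2 TKO livers, against 271, 523, 39.3 and 361 CPM in WT livers (log2 fold change -11.24 ± 1.32, adjusted p = 3.7e-06). Serpina12, the adipokine vaspin, had 2.67, 1.26, 2.42 and 2.03 CPM in Nrf2 TKO livers, against 83.9, 129, 88.5 and 136 CPM in WT livers (log2 fold change -5.72 ± 0.73, adjusted p = 7.6e-06). These were low in all 4 Nrf2 TKO libraries. Capn8, a calpain, had 0, 0.149, 0.775 and 0.773 CPM in Nrf2 TKO livers, against 28.8, 41.6, 17.7 and 39.3 CPM in WT livers (log2 fold change -6.24 ± 0.54, adjusted p = 3.2e-08). Dct, dopachrome tautomerase, had 0, 0.0743, 0.291 and 0 CPM in Nrf2 TKO livers, against 4.2, 11.1, 9.74 and 3.9 CPM in WT livers (log2 fold change -6.17 ± 0.69, adjusted p = 7.2e-07). Ces2c, a carboxylesterase, had 0.990, 0.520, 2.23 and 0.386 CPM in Nrf2 TKO livers, against 20.5, 44.5, 31.5 and 14.5 CPM in WT livers (log2 fold change -4.77 ± 0.45, adjusted p = 1.3e-07). All WT libraries were above all Nrf2 TKO libraries for each of them, which the rule that chose them required. The log2 fold changes of the other 3 were -5.79 ± 0.95 for Serpina4-ps1, -5.50 ± 1.01 for Mup9 and -5.16 ± 1.19 for Mup12. Without Nrf2 TKO library 3, the highest of that group for these genes, the log2 fold changes were -7.54 for Dct, -5.47 for Ces2c, -6.91 for Serpina4-ps1, -6.91 for Mup9 and -6.48 for Mup12. For Serpina4-ps1 it was -5.19 without WT library 3.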

How the data were processed

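Liver RNA of 24 libraries, 4 in each of 6 genotypes, was sequenced as single 75-base reads, per the labels' protocols. The authors deposited whole-number read counts per gene, with no normalization. The submitters' processing notes name Trimmomatic 0.36, HISAT2 2.1.0, HTSeq and genome build GRCm38. The sources used here name no annotation release or strand setting. Of 33019 identifiers, 32938 were named and placed with GENCODE M21 and 81 were not.

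All 24 libraries entered one fit in edgeR 4.0.16 (R 4.3.3) with TMM scaling, its default filter on low counts and the robust quasi-likelihood test, on 18 residual degrees of freedom. Nrf2 TKO was contrasted with WT and, only as a test of that difference, with DKO, and p-values were adjusted by Benjamini and Hochberg over all 15851 genes. Values are CPM per library, and fold changes carry standard errors taken from the F statistic. The counting interval and floors cover counting error only. The code was tested on simulated counts. DESeq2 1.42.0, other scalings, no filter, a fit of only the groups compared, a replicate block and leaving out each library were the alternatives.

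Genes and lists were chosen with earlier results of these data known. Named genes are the 4 targeted genes, the 10 largest changes in each direction (called, 5 CPM or more on average in the higher group, groups apart, predicted genes passed over), and in each list up to 4 members by adjusted p and up to 2 by level. In each NRF2 list up to 2 more were taken by adjusted p against DKO. Named after their values were seen were Acta2, Creld2, Dnajc3, Herpud1, Lamp1, Mcoln1, Pdia6, Rragc and members that only spell out a small count. Some genes that the rule names are not reported here. No fold-change table of the authors was used.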

Additional observations from a re-analysis of the deposited data

Results flagged for a closer look

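In 13 of 270 groups (4.81%), each the 4 libraries of one genotype for one named gene, 1 library stood apart from the other 3 on the log2 scale, past Dixon's 95% limit for 4 values. Chance flags about 1 in 20 groups. Of the 13, 7 were in Nrf2 TKO and 6 in WT livers, and 3 of the 7 were library 2.

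Nrf2 TKO library 2 was highest for Cyp4a14, at 2357 CPM against 843 to 986 CPM in the other 3 Nrf2 TKO libraries. It was lowest for Mup20, at 311 CPM against 3204 to 5072 CPM, and for Serpina1e, at 38.8 CPM against 7476 to 10954 CPM. This is the library with high Xist and few Y-linked counts, and the part of that in these values was not tested.

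Nrf2 TKO library 1 was highest for Col5a2, at 1578 CPM against 459.9 to 532 CPM. Nrf2 TKO library 3 was lowest for Abcc5, at 21.8 CPM against 33.2 to 36 CPM, and for Cxcl16, at 14.9 CPM against 24.7 to 26.2 CPM. Nrf2 TKO library 4 was highest for Sqstm1, at 975 CPM against 535 to 575 CPM.

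WT library 3 was highest for Ero1lb, at 187 CPM against 131 to 137 CPM in the other WT libraries. It was lowest for Rxra, at 435 CPM against 611 to 639 CPM, and for Spp1, at 50.4 CPM against 73.9 to 76.2 CPM. WT library 4 was highest for Gpnmb, at 0.244 CPM against 0.106 to 0.116 CPM. It was lowest for Tkt, at 122 CPM against 146 to 147 CPM, and for Usp18, at 4.75 CPM against 8.09 to 8.79 CPM.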

How the results depend on the processing

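When libraries were scaled by their totals alone, 6166 genes were called higher and 1004 lower against WT, and 1826 higher and 9483 lower against DKO. A fit of only the 8 Nrf2 TKO and WT libraries called 3691 genes, 2130 higher and 1561 lower. Leaving out one library of the groups compared gave 4845 to 6944 calls against WT, 2770 to 3898 higher and 2075 to 3046 lower, and 8108 to 8974 against DKO, 3861 to 4392 higher and 3915 to 4759 lower. In the fit of those 8 libraries lower members numbered 9 of 21 major urinary proteins, 10 of 42 secreted proteins, 5 of 31 fatty acid oxidation genes, 3 of 15 bile acid synthesis genes, 3 of 26 acute-phase genes and 2 of 29 glycolysis genes. With no filter 6 acute-phase genes were lower, and by total counts alone 3 neutrophil markers and 1 bile acid synthesis gene were higher. DESeq2 called 6503 genes, of which 6173 were also called by edgeR, all in the same direction.

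No label says that the replicate numbers pair the libraries, and the deviations from the group means gave no clear sign of it, which does not exclude pairing. The correlations of same-numbered deviations were -0.03, -0.03, -0.08 and 0.15 between Nrf2 TKO and WT, and 0.10, -0.12, -0.05 and 0.09 between Nrf2 TKO and DKO. The own number was the best match for Nrf2 TKO library 4 in both, and for library 1 in DKO. With a replicate block 6150 genes were called against WT, 3446 higher and 2704 lower, and 8775 against DKO.

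Named genes that changed direction were all ones that did not pass the test. By total counts alone the log2 fold change against WT was 0.18 for Krt18, 0.16 for Lamp1 and 0.11 for Tsc1, and that of Eda2r against DKO was -0.31. Over fits without one library it ran from -0.33 to 0.0072 for Lamp1, from -0.28 to 0.18 for Sc5d and from -0.074 to 0.28 for Sqstm1. The cause was not tested where the scaling or the left-out library does not give it. Genes near the low-count filter have the least depth, and for them a difference may not be detectable.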
